A study of Mus musculus with 12 samples.

Results

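Transcripts of 10 cytokine receptor genes through which innate lymphoid cells are maintained or activated were described in ILC3s (group 3 innate lymphoid cells) of the mouse small intestine. The genes were Il7r, Il23r, Il1r1, Il2ra, Il2rb, Il2rg, Il18r1, Il12rb1, Il1rl1 and Il17rb, taken by name from a table of 23284 genes. All 10 were found, and all 10 were among the 12502 genes tested, which needed an FPKM (fragments per kilobase of transcript, scaled to the mapped fragments of the library) of at least 1 in at least 3 libraries. The mice were HR-1, a hairless strain, and were 18 weeks old according to the labels. PA milk mice were born to mothers on the normal diet and nursed by mothers whose chow contained added palmitic acid, a saturated fatty acid, until they ate on their own, whereas ND mice were nursed by mothers on the normal diet. Whether ND pups were also moved between mothers was not stated in the sources used here. From each diet, ILC3s were sorted from the intraepithelial layer (IEL) and from the lamina propria (LP), the connective tissue below the epithelium, giving 12 libraries in 4 groups of 3. The sort, as the methods give it, took cells without lineage markers that carried CD4, Thy1.2, CD25 and Nrp1, and a figure legend of the study names CD45 in the place of CD4. CD25 is the protein product of Il2ra, so this receptor was itself part of the sort. The labels do not say whether libraries came from separate mice, so p-values measure the spread between these libraries, which may be technical.

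Cytokine receptors of lymphocytes are built from chains that are shared between cytokines. The common gamma chain, encoded by Il2rg, pairs with the IL-7 receptor alpha chain and with the IL-2 receptor chains and signals through JAK kinases and STAT factors, while IL-12Rb1 pairs with the IL-23 receptor chain or with IL-12Rb2. The receptors of the IL-1 family, for IL-1, IL-18 and IL-33, signal through MyD88, and the IL-25 receptor signals through Act1. In the gut, ILC3s depend on IL-7 and produce IL-22 and IL-17 in response to IL-23 and IL-1, whereas the receptors for IL-33 and IL-25 are best known from ILC2s.

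The promoters of Il2rg, Il7r and Il23r are shown because these genes represent, in order, the chain found in every library, the receptor with the highest level after it and the receptor by which ILC3s are classically activated. Each is the RefSeq window from 250 bases before to 50 bases after the annotated start, on build GRCm38.p6, and all 3 genes lie on the minus strand. Capitals mark letters of a searched motif on either strand: TGTGGT, the core bound by RUNX factors, TTCNNNGAA, a STAT site, and AGGTCA, a site shared by many nuclear receptors. The windows are chrX:101268206-101268505 for Il2rg, chr15:9529827-9530126 for Il7r and chr6:67491806-67492105 for Il23r.
Il2rg: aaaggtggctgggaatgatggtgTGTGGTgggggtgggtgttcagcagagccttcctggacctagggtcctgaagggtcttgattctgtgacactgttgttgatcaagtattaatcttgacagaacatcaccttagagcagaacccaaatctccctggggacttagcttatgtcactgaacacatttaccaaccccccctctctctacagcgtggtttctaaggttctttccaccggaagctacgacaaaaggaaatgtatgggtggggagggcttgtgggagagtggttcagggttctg
Il7r: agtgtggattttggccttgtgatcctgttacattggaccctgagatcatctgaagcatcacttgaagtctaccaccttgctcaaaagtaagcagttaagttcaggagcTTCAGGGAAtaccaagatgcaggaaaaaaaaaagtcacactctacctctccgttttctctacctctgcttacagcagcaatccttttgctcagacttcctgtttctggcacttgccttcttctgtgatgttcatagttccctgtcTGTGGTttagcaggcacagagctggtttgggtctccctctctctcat
Il23r: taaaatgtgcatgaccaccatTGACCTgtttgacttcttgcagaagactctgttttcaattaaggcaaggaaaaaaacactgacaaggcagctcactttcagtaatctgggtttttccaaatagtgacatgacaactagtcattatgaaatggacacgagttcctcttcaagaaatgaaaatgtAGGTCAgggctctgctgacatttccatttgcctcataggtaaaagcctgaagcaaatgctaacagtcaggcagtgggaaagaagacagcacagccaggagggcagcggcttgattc
The Il23r window held the nuclear receptor site at 2 positions, beginning 229 and 66 bases before the start and on opposite strands. In the Il7r window a STAT site lay 142 bases before the start, and a RUNX core began 3 bases after it. The Il2rg window held 1 RUNX core, 227 bases before the start. RefSeq gave 12 windows for 8 of the 10 genes. Among these 12 windows, AGGTCA was present in 2, TGTGGT in 4 and TTCNNNGAA in 2, and over 32851 promoter windows of all genes the shares were 16.3%, 16.8% and 8.3%. The motifs do not overlap one another in letters, and a match is a description of the sequence rather than a bound site.

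The libraries differed in how many genes they contained, with between 4390 and 11378 genes at an FPKM of at least 1. Estimated reads ranged from 8.82 to 14.5 M per library. PA IEL replicate 2, with the fewest genes, had the most reads, at 14.5 M. The total of scaled counts ranged from 9376529 to 11710874, but these counts are already scaled and do not measure depth. PA IEL replicate 2 and PA LP replicate 2 stood apart, with 34.8% and 44.2% of the tested genes at an FPKM of at least 1, and 61.7% to 86.5% in the other 10 libraries. Across genes, replicates correlated with Spearman coefficients of 0.48 to 0.90. Since cDNA was amplified without molecular identifiers, a gene listed at 0 can still have been present in the cells, and a listing of 0 allows up to 3 reads by counting error alone. In a bulk sample, fewer cells of a type and less RNA per cell cannot be told apart. Of the transcripts of the sorted proteins, Cd4 and Ptprc (CD45) were at an FPKM of at least 1 in 11 of the 12 libraries, Nrp1 in 10, Il2ra in 8 and Thy1 in 7. Markers of other cells were present at levels that varied widely over the 12 libraries, with summed FPKM of 11.1 to 18270 for B and plasma cells, mostly from Igj, 282 to 11370 for macrophages and neutrophils, 52.2 to 1308 for ILC1s and NK cells, 7.91 to 504 for ILC2s and 0.148 to 482 for regulatory T cells. Their part in the receptor levels was not tested.

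In each library, the number of receptors detected, meaning at an FPKM of at least 1, was lowest in the 2 libraries with the fewest genes, but otherwise did not strictly follow the number of genes. PA IEL replicates 1, 2 and 3 had 9, 1 and 8 of the 10, and the ND IEL replicates had 8, 4 and 10. The PA LP replicates had 3, 1 and 7, and those of ND LP had 6, 9 and 8. The single receptor of both sparse libraries was Il2rg. PA LP replicate 3, with 11378 genes the richest library, had fewer receptors than 6 others, and PA LP replicate 1 had 8406 genes and 3 receptors where ND IEL replicate 2 had 7863 genes and 4.

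**Figure D1:**
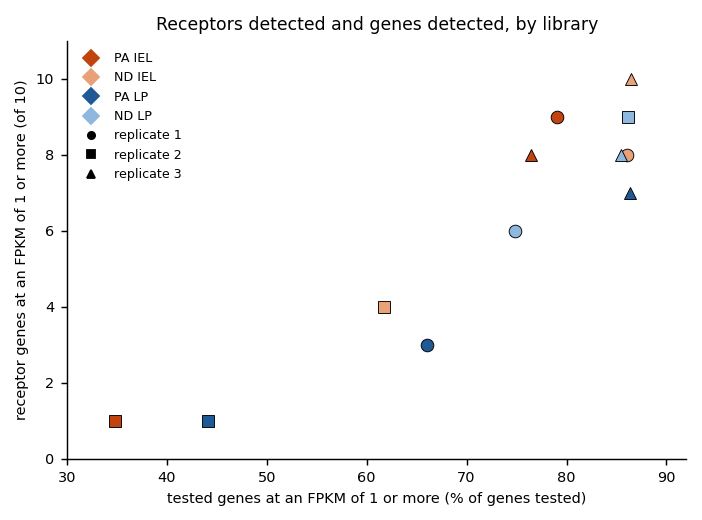
Each point is 1 library, with the share of the 12502 tested genes at an FPKM of at least 1 on the x axis (%) and the number of the 10 receptor genes at that level on the y axis; colour gives the group and shape the replicate. The libraries with the fewest genes, PA IEL 2 and PA LP 2, have 1 receptor each, and libraries above 75% of the genes have 7 to 10.

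Il2rg was by far the highest of the 10 receptor transcripts, and Il1rl1 the lowest. Over the 12 libraries, the mean FPKM was 244.7 ± 124.8 (SD, n = 12) for Il2rg and 41.8 ± 51.8 for Il7r. Il1r1 at 12.2 ± 12.4, Il2ra at 10.8 ± 23.0, Il18r1 at 7.38 ± 9.19, Il2rb at 7.16 ± 12.4 and Il23r at 7.13 ± 11.1 formed a middle group whose SDs were as large as or larger than the means, so that neighbours in this order did not differ beyond their spread. Il17rb at 5.47 ± 11.4, Il12rb1 at 3.73 ± 4.91 and Il1rl1 at 0.589 ± 1.16 were the lowest. Among the means of all tested genes, Il2rg was at percentile 95.7, Il7r at 76.6, the middle group between 35.6 and 48.3, and Il1rl1 at 0.672. Il2rg was detected in 12 libraries, Il7r and Il1r1 in 9, Il2ra, Il18r1 and Il2rb in 8, Il23r in 7, Il12rb1 and Il17rb in 5 and Il1rl1 in 3.

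**Figure D2:**
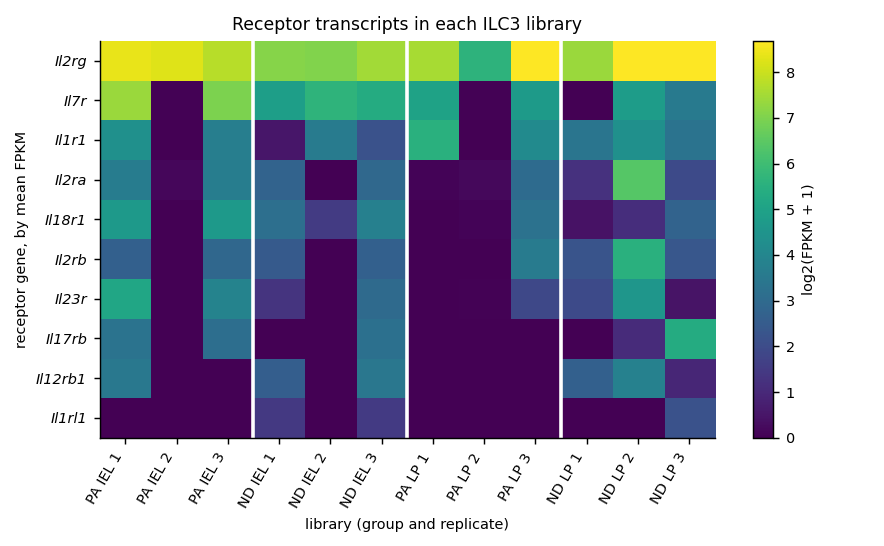
Colour shows log2(FPKM + 1) of the 10 receptor genes (rows, ordered by mean FPKM) in the 12 libraries (columns, by group and replicate). Il2rg is bright in every column, from 48.7 to 412 FPKM, while the columns PA IEL 2 and PA LP 2 are dark in every other row.

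Il2rg, at chrX:101264378-101268255 in GENCODE vM21 on GRCm38, encodes the common gamma chain. PA IEL replicates 1, 2 and 3 gave 340, 306 and 217 FPKM, and the ND IEL replicates gave 136, 133 and 179. The LP replicates gave 185, 48.7 and 412 after PA milk and 166, 403 and 412 after the normal diet. The PA IEL libraries were all above the ND IEL libraries, whereas the diets overlapped in LP, where PA LP replicate 2 was the lowest of the 12. Unlike the other 9 receptors, Il2rg kept a high value in PA IEL replicate 2. A read-through gene of the annotation, Gm20489, covers the whole Il2rg locus on the same strand, and it has no row of its own in the table.

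Il7r, at chr15:9505788-9530176, encodes the alpha chain of the receptors for IL-7 and, with Crlf2, for TSLP. PA IEL gave 167, 0.0242 and 124 FPKM, compared with 28.5, 49.3 and 39.5 for ND IEL. Both PA IEL libraries other than replicate 2 were above every ND IEL library, and the value of replicate 2 rested on 1 scaled count. PA LP gave 30.9, 0.0304 and 25.4, compared with 0, 26.7 and 10.61 for ND LP. Library ND LP replicate 1, with 74.8% of the tested genes detected, had no Il7r reads listed although Il2rg was at 166 FPKM in it.

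Il2ra, at chr2:11642807-11693193, encodes the alpha chain (CD25) that gives the IL-2 receptor its high affinity, and Il2rb, at chr15:78479256-78495271, the beta chain that IL-2 and IL-15 share. Il2ra was at 11.6, 0.121 and 11.8 FPKM in PA IEL, 5.78, 0 and 6.60 in ND IEL, 0.0553, 0.130 and 7.19 in PA LP and, for ND LP, 1.35, 82.4 and 2.83. Il2rb was at 5.34, 0 and 6.47 in PA IEL, 4.50, 0 and 5.30 in ND IEL, 0, 0 and 11.1 in PA LP and, for ND LP, 3.77, 45.2 and 4.14. In 4 libraries, PA IEL 2, PA LP 1, PA LP 2 and ND IEL 2, both chains were near or at 0, although CD25 was a marker of the sort. ND LP replicate 2 had the highest level of both chains, and its 82.4 FPKM of Il2ra compares with 11.8 in the next library.

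Il23r, at chr6:67422932-67491855, encodes the chain that binds IL-23. It was at 34.7, 0 and 13.7 FPKM in PA IEL, 1.47, 0 and 6.97 in ND IEL, 0, 0.0400 and 2.69 in PA LP and, for ND LP, 2.85, 22.8 and 0.380. The highest values were therefore in PA IEL replicate 1 and ND LP replicate 2. Il12rb1, at chr8:70808449-70821424, encodes its partner chain. It was at 10.3, 0 and 0 FPKM in PA IEL, 5.10, 0 and 10.01 in ND IEL, and 5.38, 13.1 and 0.903 in ND LP, and was listed at 0 in the 3 PA LP libraries. PA IEL replicate 3 thus had Il23r without Il12rb1.

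Of the IL-1 family, Il1r1 (chr1:40225080-40317257) encodes the signalling receptor of IL-1, Il18r1 (chr1:40465552-40500854) the binding chain of the IL-18 receptor and Il1rl1 (chr1:40429570-40465415) the IL-33 receptor ST2. The 3 genes lie on the plus strand within 275775 bases, and 136 bases separate the end of Il1rl1 from the start of Il18r1. Il1r1 was at 19.8, 0.0160 and 12.1 FPKM in PA IEL, 0.426, 11.3 and 3.55 in ND IEL, 44.4, 0 and 16.9 in PA LP and, for ND LP, 9.50, 19.3 and 8.998. PA LP replicate 1, where 3 receptors were detected, had the highest Il1r1 of all libraries. Il18r1 was at 25.0, 0 and 24.8 FPKM in PA IEL, 7.99, 1.82 and 12.8 in ND IEL, 0, 0.0575 and 8.71 in PA LP and, for ND LP, 0.328, 1.22 and 5.85. Il1rl1 was detected in 3 libraries of ND mice, at 1.69 and 1.79 FPKM in ND IEL replicates 1 and 3 and at 3.58 in ND LP replicate 3, and was listed at 0 in the other 9. The ratio of scaled counts to FPKM varied between libraries for Il18r1 (17.0 to 42.6) and Il1rl1 (29.6 to 52.0). It varied slightly for Il1r1 (48.1 to 49.3) and was constant within rounding for the other receptors. Sums over isoforms of unequal length have such a varying ratio, and the part of isoforms in these FPKM values was not tested.

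Il17rb, at chr14:29996135-30008896, encodes the chain that binds IL-25. It was at 8.83, 0 and 7.84 FPKM in PA IEL, 0, 0 and 8.23 in ND IEL, 0, 1.11 and 39.7 in ND LP, and was listed at 0 in all 3 PA LP libraries. ND LP replicate 3 was far above the rest, and this library also had the highest Il1rl1. The gene overlaps Actr8 on the opposite strand, and the sources used here do not state whether reads were counted by strand. In 4 of the 9 libraries with Actr8 at an FPKM of at least 1, Il17rb was listed at 0 while Actr8 was between 18.1 and 35.5. Il1r1 and Il2ra overlap short gene models of unknown coding status on their own strand, so 4 of the 10 receptors overlap another annotated gene.

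**Figure D3:**
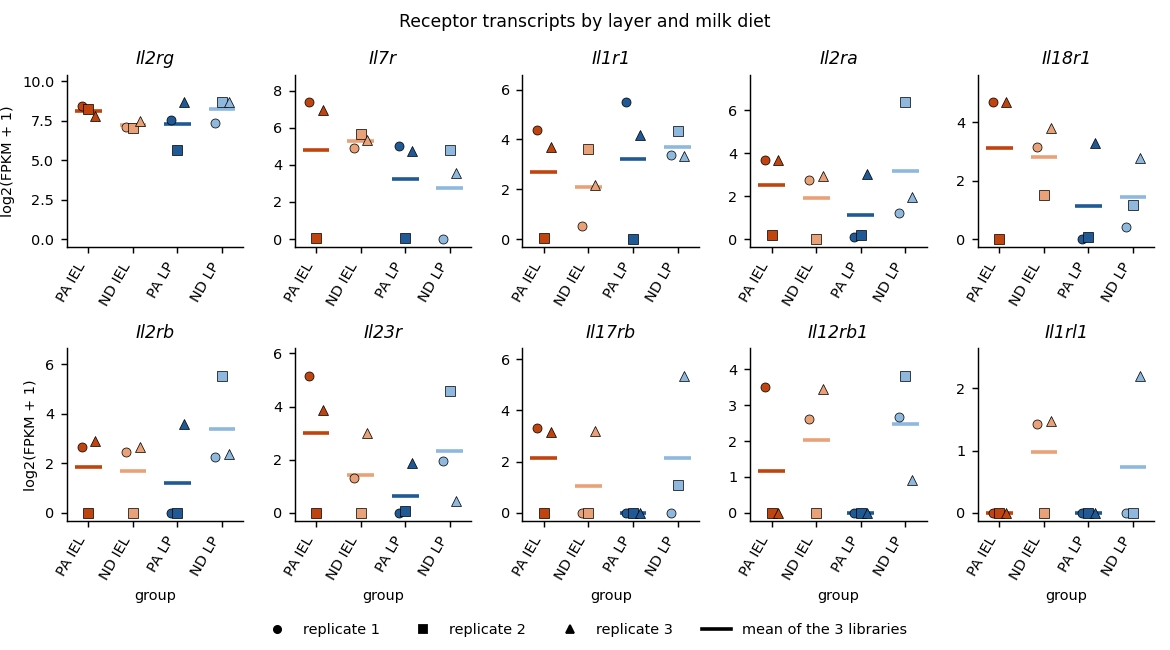
Each panel shows log2(FPKM + 1) of 1 receptor gene by group (x axis), with 1 symbol per library (circle, square and triangle for replicates 1, 2 and 3) and a bar at the mean of the 3 libraries; the y axis differs between panels. In Il7r, the 2 upper PA IEL libraries lie at 167 and 124 FPKM and the third at 0.0242, and in Il2rg the 3 PA IEL libraries lie above the 3 ND IEL libraries.

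Whether the chains needed for a receptor were transcribed together was counted as the libraries with every chain at an FPKM of at least 1. The IL-7 receptor (Il7r and Il2rg) and the TSLP receptor (Il7r and Crlf2) were each complete in 9 of the 12 libraries, and the high affinity IL-2 receptor (Il2ra, Il2rb and Il2rg) in 8. The IL-1 receptor (Il1r1 and Il1rap) and the IL-18 receptor (Il18r1 and Il18rap) were each complete in 6 libraries. The IL-23 receptor (Il23r and Il12rb1) was complete in 5, namely 1 PA IEL, 2 ND IEL and 2 ND LP libraries, and in 0 of the 3 PA LP libraries. The IL-12 receptor (Il12rb1 and Il12rb2) was complete in 4 libraries, all of ND mice, with 2 in each layer. The IL-25 receptor (Il17rb and Il17ra) was complete in 4 libraries and the IL-33 receptor (Il1rl1 and Il1rap) in 2, both ND IEL. Il1rap, the accessory chain that the IL-1 and IL-33 receptors share, was detected in 7 libraries. These are counts over pools of cells, so chains found in 1 library need not be in the same cells. They are also limited by detection, which differed between the diets. PA IEL 2 and PA LP 2 had 1 of the 10 receptors detected each, PA LP 1 had 3 and ND IEL 2 had 4.

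Whether PA milk altered receptor transcripts in the IEL was examined by limma on log2(FPKM + 1), with the 12 libraries in 1 fit. No receptor passed an adjusted p (Benjamini-Hochberg over the tested genes) of 0.05, and 0 of the 10 had an unadjusted p under 0.05 by limma. Over all tested genes these shares were 0% and 3.58%. The mean of log2(FPKM + 1) was higher in PA milk for 7 of the 10 receptors, beside 38% of all tested genes, and the median log2 fold change was 0.45 for the receptors and -0.30 for all genes. Both receptor values rested on single libraries. The receptor median was -0.25, -0.13 and -0.33 without PA IEL 1, PA IEL 3 and ND IEL 2, beside -0.54, -0.48 and -0.51 for all genes. In these 3 fits 4, 5 and 4 receptors were higher, beside 33.6%, 35.1% and 32.8% of all tested genes. Without PA IEL 2 and ND IEL 3 the receptor median was 1.83 and 0.72, beside 0.00 and -0.16 for all genes. With limma-voom on the scaled counts the receptor median was -0.23, beside -0.96 for all genes. Il2rg had a log2 fold change of 0.93 ± 0.67 (SE, limma adjusted p = 0.947), with means of 287.6 ± 63.1 FPKM in PA milk and 149.3 ± 26.0 in ND (SD, n = 3 each). It was the only receptor whose groups did not overlap, with every PA milk library higher, which held for 2.97% of the tested genes. Il23r had a log2 fold change of 1.58 ± 1.43 (limma adjusted p = 0.947), and Il17rb one of 1.08 ± 1.35 (limma adjusted p = 0.960). Il1r1, Il2ra, Il18r1 and Il2rb were between 0.15 and 0.61, with standard errors of 1.39 to 1.55. Il7r had a log2 fold change of -0.49 ± 1.86 and Il12rb1 one of -0.86 ± 1.18, while Il1rl1 was listed at 0 in PA IEL.

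Several of these values rested on 1 library. Without the 2 sparse libraries, PA IEL 2 and PA LP 2, the log2 fold change of Il7r in IEL was 1.89 ± 1.10, that of Il23r 3.08 ± 1.36, that of Il1r1 1.94 ± 1.0 and that of Il18r1 1.88 ± 1.23, where the median of all genes became 0.00. The limma adjusted p of all 10 receptors was then 1. In that comparison of 2 libraries with 3, PA milk lay wholly above ND for 7 of the 10 receptors, Il7r, Il23r, Il1r1, Il2ra, Il2rb, Il2rg and Il18r1, and for 9.92% of all tested genes. This choice of libraries was made after the data had been seen. Leaving out PA IEL replicate 1 turned the log2 fold change of Il1r1 to -0.24, of Il2rb to -0.25 and of Il18r1 to -0.47. Leaving out ND IEL replicate 2 turned that of Il2ra to -0.34, of Il2rb to -0.70 and of Il18r1 to -0.35. Without PA IEL replicate 3, Il2rb was at -0.37 and Il18r1 at -0.47, and without ND IEL replicate 1, Il1r1 was at -0.20. Il23r was at 0.51, 3.08 and 0.86 without PA IEL 1, PA IEL 2 and ND IEL 2. Il17rb ranged from 0.50 to 2.15 and Il12rb1 from -2.02 to -0.14, and each of the 6 libraries moved both values by more than 1.5 times. Il2rg kept its direction without any 1 of the libraries, between 0.80 and 1.12.

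Other transcripts also differed between the IEL libraries. Among the 14 ILC3 markers, 10 or more were detected in each of PA IEL 1, PA IEL 3, ND IEL 1 and ND IEL 3, against 1 in PA IEL 2 and 3 in ND IEL 2. Their summed level in the PA IEL replicates was 2581, 327 and 1300 FPKM, compared with 395, 234 and 902 for ND IEL. Among the 10 T cell markers, the PA IEL replicates had 4, 0 and 4 detected and the ND IEL replicates 9, 1 and 10, and their sums ranged from 0.149 to 182 and from 12.8 to 538 FPKM. The defining genes Cd3d and Cd3e were at 0 in all 3 PA IEL libraries, whereas Cd3g was at 11.1 FPKM in PA IEL 3 and Cd8b1 at 129 and 37.0 in PA IEL 1 and 3. The part of these differences in the receptor levels was not tested.

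**Figure D4:**
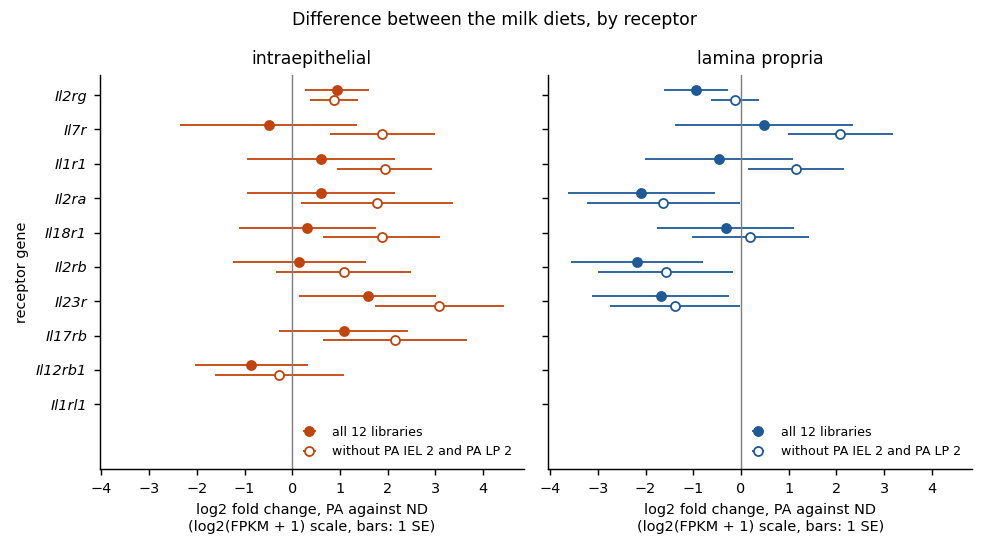
Points show the limma log2 fold change of PA milk against ND (x axis, log2(FPKM + 1) scale) with 1 SE for each receptor gene, in IEL on the left and LP on the right, for all 12 libraries (filled) and without PA IEL 2 and PA LP 2 (open); genes listed at 0 in a whole group are left blank. Il7r in IEL moves from -0.49 to 1.89 and Il2rg in LP from -0.95 to -0.13.

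In the LP, the same comparison gave lower mean levels in PA milk for most receptors, none past the test. Again 0 of the 10 receptors passed the adjusted p of limma and 0 had an unadjusted p under 0.05, beside 0% and 4.7% of all tested genes. Mean log2(FPKM + 1) was lower in PA milk for 9 of the 10 receptors and higher for Il7r, where 37.4% of all tested genes were higher. The median log2 fold change was -1.32 for the receptors and -0.36 for all genes, and -1.13 and -0.17 after a scaling on 30 leukocyte genes. The receptor median was -0.65 without ND LP 2, -0.69 without ND LP 3 and -0.62 with a pseudocount of 10. For all genes it was -0.30, -0.33 and -0.08 in the same fits. Il2rb had a log2 fold change of -2.18 ± 1.39 (SE, limma adjusted p = 0.979), Il2ra of -2.09 ± 1.54, Il23r of -1.68 ± 1.43 and Il2rg of -0.95 ± 0.67. Il1r1 was at -0.46 ± 1.55, Il18r1 at -0.33 ± 1.43 and Il7r at 0.48 ± 1.86. Il12rb1, with ND LP values from 0.903 to 13.1 FPKM and all 3 PA LP libraries listed at 0, was the only receptor whose groups did not overlap, and 6.6% of all tested genes lay wholly lower in PA milk. Il17rb and Il1rl1 were also listed at 0 throughout PA LP, but in ND LP they were at 0 in 1 and 2 libraries.

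The LP values, too, depended on single libraries. Without PA IEL 2 and PA LP 2, Il1r1 in LP was at 1.15 ± 1.0, Il18r1 at 0.19 ± 1.23, Il7r at 2.08 ± 1.10 and Il2rg at -0.13 ± 0.50, while Il2ra at -1.63 ± 1.60, Il2rb at -1.58 ± 1.42 and Il23r at -1.39 ± 1.36 kept their direction. In those libraries PA milk lay wholly above ND for 0 of the receptors and wholly below it for Il12rb1, beside 11.7% and 10.3% of all tested genes. Il7r turned to -0.39, -0.26 and -0.91 without PA LP replicate 1, PA LP replicate 3 and ND LP replicate 1, respectively. Without ND LP replicate 2, Il2ra was at -0.49, Il2rb at -1.11 and Il23r at -0.56, and over each library left out in turn they ranged from -3.06 to -0.49, -3.38 to -1.11 and -2.61 to -0.56. The lower ends for Il2rb and Il23r were without PA LP 3 and ND LP 3. Il2rg was at -0.13 without PA LP replicate 2 and at -1.65 without PA LP replicate 3. Il18r1 turned to 0.23 without PA LP replicate 1 and to 0.34 without ND LP replicate 3. ND LP replicate 2, with the highest Il2ra, Il2rb and, in LP, Il23r, also had the highest Il22, Il17f and Il17a, at 4339, 1637 and 217 FPKM, which are the effector cytokines of ILC3s. In ND LP replicate 3, the library highest in Il17rb and Il1rl1, the ILC2 transcripts Il5 at 33.8, Il4 at 66.4 and Gata3 at 19.3 FPKM were the highest of all libraries. Its ILC2 markers summed to 341.8 FPKM, and the sum was highest in PA IEL replicate 3, at 504.5, of which Areg gave 486.5. Areg, Klrg1, Hpgds and Arg1 were each higher in another library than in ND LP replicate 3. What part other cells had in these values was not tested.

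The diet effect itself was compared between the layers as an interaction in the same fit. By limma, 0 of the 10 receptors passed an adjusted p and 0 an unadjusted p of 0.05, beside 0% and 2.34% of all tested genes. The effect was higher in LP than in IEL for 2 of the 10 receptors, beside 49.2% of all tested genes. For Il2rg the difference (LP effect minus IEL effect) was -1.88 ± 0.95 on the log2 scale (limma adjusted p = 0.9999), and it was between -2.58 and -1.06 when each library was left out in turn. For Il23r it was -3.26 ± 2.03 (limma adjusted p = 0.9999), and between -4.77 and -2.14 when each library was left out. Averaged over both layers, 0 of the 10 receptors passed either threshold for diet, beside 0% and 6.02% of all tested genes.

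The layers were compared within each diet and over both. In ND mice, LP against IEL gave 0 of 10 receptors past the adjusted p of limma (0.032% of tested genes) and 0 past the unadjusted p (6.63%). In PA milk mice the counts were also 0 and 0, beside 0.144% and 10.6% of tested genes. Over both diets they were 0 and 0, beside 0.88% and 13.4%. Il7r had the largest difference over both diets, a log2 fold change in LP against IEL of -2.03 ± 1.32 (limma adjusted p = 0.571). In ND mice every LP library was below every IEL library for Il7r, at most 26.7 against at least 28.5 FPKM, the only such receptor, while this held for 9.95% of tested genes. Il18r1 was lower in LP by the same measure, at -1.69 ± 1.015 (limma adjusted p = 0.525), and Il1r1 was higher, at 1.05 ± 1.098 (limma adjusted p = 0.780). For these 3 genes, leaving out any 1 library kept the direction, with ranges of -3.22 to -1.23, -2.47 to -1.30 and 0.38 to 1.86. Without the sparse libraries, 5 receptors (Il7r, Il23r, Il2ra, Il18r1 and Il17rb) lay wholly lower in LP than in IEL in PA milk mice, where 2 libraries were compared with 2 and 19.6% of all tested genes did so.

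The layers carried different amounts of epithelial RNA, as measured by 11 epithelial markers. These summed to between 3638 and 80300 FPKM in the 6 IEL libraries and to between 313 and 5091 in the 6 LP libraries. Apoa1, which encodes an apolipoprotein of enterocytes, was lower in LP with a log2 fold change of -7.49 ± 0.78 (limma adjusted p = 0.000387) over both diets. Fabp2, Krt8 and Krt20 also passed this test and were lower in LP, and Tmsb4x of the leukocyte list passed it and was higher. The part of this difference in the receptor levels was not tested.

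Receptor levels moved together across libraries to unequal degrees. The 12 libraries differ in the number of genes they hold and fall into 4 groups. Over them, the rank correlation (Spearman) of FPKM between a receptor and all tested genes had medians of 0.084 to 0.185. Between receptors it was above 0 for 42 of the 45 pairs, with a median of 0.420. It was highest for Il2ra and Il2rb, at 0.961, and among all other tested genes each of these was the one most like the other. Il23r followed Il2ra at 0.916 and Il2rb at 0.853, and its partner Il12rb1 at 0.725. Il7r and Il2rg, which form the IL-7 receptor, had a correlation of -0.007, and Il1r1 and Il1rl1 one of -0.395. The number of genes detected per library correlated with Il2rb at 0.769, with Il2ra at 0.657, with Il1r1 at 0.266 and with Il7r at 0.154. For the other receptors this correlation was between 0.463 (Il12rb1) and 0.620 (Il18r1). These correlations describe the libraries and were not tested.

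**Figure D5:**
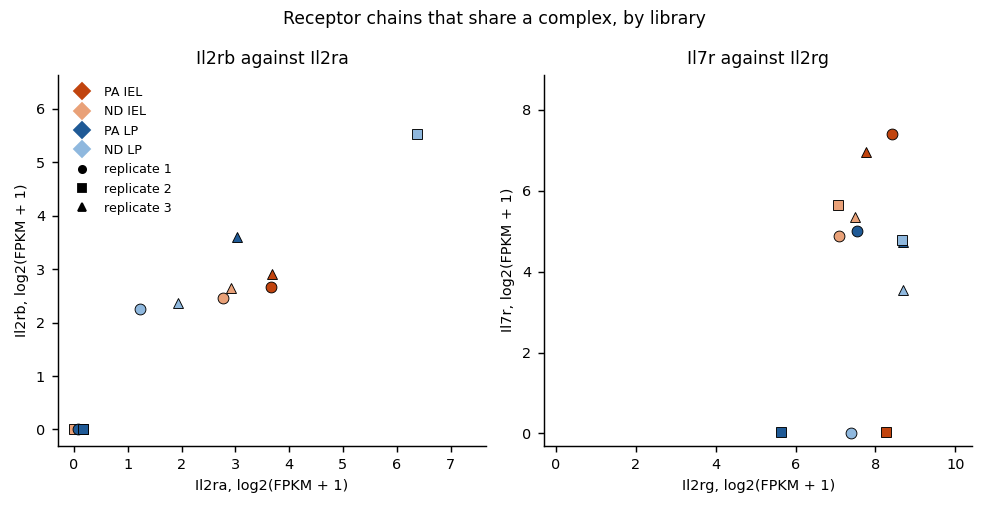
Each point is 1 library in log2(FPKM + 1), with Il2rb against Il2ra on the left and Il7r against Il2rg on the right; colour gives the group and shape the replicate. High Il2ra goes with high Il2rb (rank correlation 0.961), and 3 libraries have Il7r at or near 0 while Il2rg is between 48.7 and 306 FPKM.

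The genes most like each receptor over the 12 libraries were found by the same rank correlation. For Il7r they were B930041F14Rik (0.956) and Alcam (0.949), for Il23r Gdpd5 (0.957) and Dcun1d2 (0.943), and for Il1r1 Rab5c and Fosb (both 0.923). After each other, Il2ra was most like Sos1 (0.940) and Il2rb most like Stx11 (0.946). Il2rg was most like Rps27 (0.909) and Srgn (0.881), Il18r1 like Rhobtb1 (0.963) and Dusp5 (0.956), Il12rb1 like Tubb2b (0.956) and Snx33 (0.952), and Il17rb like D9Ertd402e (0.922) and Gatad2b (0.889). Il1rl1 had the same order of libraries as Glp1r and Il7 (a correlation of 1 with both), which were above 0 in the same 3 libraries.

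Among the partner chains and other related receptors, 0 of 19 tested genes passed the adjusted p of limma in any of the comparisons. Il12rb2, the second chain of the IL-12 receptor, was near or at 0 in PA IEL (0.0373, 0 and 0.0288 FPKM) and at 11.5, 10.2 and 12.2 FPKM in the ND IEL replicates, with a log2 fold change of -3.59 ± 1.04 (limma adjusted p = 0.947). Its ND IEL libraries all lay above its PA IEL libraries, as 5.22% of all tested genes did, and the 3 ND IEL libraries were within 2 FPKM of each other. Il18rap was detected in 7 libraries and Il17ra in 11. Ifngr1, Ifngr2 and Il10rb, chains of the interferon gamma and IL-10 receptors, had the highest mean levels of this list, at 139, 80.6 and 57.3 FPKM.

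The ligands of these receptors differed widely in level in the sorted cells. Il23a and Il25 were listed at 0 in all 12 libraries, and Il12b was above 0 in 2, at 4.80 and 1.55 FPKM in ND LP replicates 2 and 3. Il7 was above 0 in the same 3 libraries as Il1rl1, at 1.59 to 3.23 FPKM. Il2 was at 11.2 FPKM in PA LP replicate 3 and listed at 0 elsewhere, and Tslp was at 20.2 in ND LP replicate 3 and listed at 0 elsewhere. Il18, Il1b and Il12a had the highest means, at 64.65, 44.8 and 38.59 FPKM over the 12 libraries. Il1b reached 337 FPKM in ND LP replicate 1, where Il7r was listed at 0. Macrophage and neutrophil markers summed to 11370 FPKM in that library, the highest of the 12. Their part in its Il1b level was not tested. Il1a was at most 30.5 FPKM, Il15 at most 54.2 and Il33 at most 22.2. Of the 7 ligands tested, 0 passed the adjusted p of limma in any comparison.

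The pathways below the receptors were read from lists of the decoys and inhibitors (8 genes tested), JAK and STAT genes (10) and MyD88 and Act1 signalling genes (12). None of these genes passed the adjusted p of limma in any of the comparisons. In the IEL, 1 of the 10 JAK and STAT genes had a higher mean in PA milk, beside 38% of all tested genes, with a median log2 fold change of -1.02 beside -0.30. The number of these genes detected was 10, 3 and 9 in the PA IEL replicates and 10, 8 and 10 in the ND IEL replicates. In the sparse library PA IEL 2, Jak1, Jak2, Jak3, Stat4, Stat5a, Stat5b and Stat6 were at most 0.0607 FPKM. The IEL count and median therefore rested in part on this library, and they were not recomputed without it. In the LP, 5 of the 10 JAK and STAT genes were higher and 5 lower, with a median of -0.05. For MyD88 and Act1 signalling, 4 of 12 genes were higher in PA milk in each layer, beside 38% of all tested genes in IEL and 37.4% in LP. Among the inhibitors, Socs3, which dampens STAT3 signalling, was the highest on average, and it ranged from 0.0868 FPKM in PA IEL replicate 2 to 1709 in PA LP replicate 1. The PA LP replicates were at 1709, 0.181 and 1493 FPKM, and ND LP was between 239 and 981. The PA IEL replicates were at 60.8, 0.0868 and 41.5 FPKM, and ND IEL was between 9.79 and 92.2.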

How the data were processed

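The data are RNA sequencing of sorted intestinal ILC3s from both layers and both milk diets, and the 12 libraries were put into 4 groups of 3 by their labels. The authors amplified full-length cDNA, mapped reads to mm10 with TopHat2 2.1.1, Bowtie2 2.2.8.0 and SAMtools 0.1.18, and quantified genes with Cufflinks 2.2.1 (Cuffdiff 2.2.1 is also named in their processing notes). The FPKM values were deposited by the authors on a common scale across libraries. The deposited count table holds a scaled signal, that is, counts divided by a factor for each library and rounded, so count models (edgeR, DESeq2) were not run, and the FPKM values were tested instead. Whole reads behind low values were estimated from the steps between them, as 8.82 to 14.5 M per library, with 95.9% to 100% of the low values within 0.05 of a whole read.

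Genes that reached an FPKM of 1 in 3 or more libraries were tested with limma 3.58.1 (R 4.3.3) on log2(FPKM + 1), 12 libraries in 1 fit of 4 group means with a trend, adjusted by Benjamini-Hochberg over 12502 genes. Fold changes are on the log2(FPKM + 1) scale, which understates changes of low genes. An exact permutation test of 3 against 3 libraries cannot go below p = 0.1 and was not used. Scripts were tested on simulated data. The 10 receptors and all gene lists were chosen with earlier results of these data known. Named genes are the receptors, their partner chains and ligands, the 3 most abundant genes or those past the test in other lists, and the genes most like each receptor. Other genes named beside single libraries (Il22, Il17a, Il5, Il4, Gata3, Cd3d, Cd3e, Cd3g and Cd8b1 among them) were chosen after their values were seen. Coordinates are from GENCODE vM21 (GRCm38, the build named mm10) and promoters from RefSeq (GRCm38.p6), without entries for Il2rb and Il12rb1. The alternatives were a scaling to the upper quartile or on leukocyte genes, other filters and pseudocounts, only the libraries compared, the replicate number as a block, quality weights, limma-voom on the scaled counts, the ratio of means, and leaving out libraries. Same-numbered libraries did not in general deviate together. Both sparse libraries carry the number 2 of PA milk, and their deviations correlated at 0.060, with at most -0.014 for other numbers. The labels do not say whether these 2 libraries share a mouse or a preparation. Of the marker lists, Jchain, Mzb1, Adgre1 and Muc2 were not analysed here, and one other gene is not reported here.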

Additional observations from a re-analysis of the deposited data

How the results depend on the processing

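The number of receptors past an adjusted p of 0.05 was 0 in all 141 counts (7 comparisons under the settings that gave one). At an unadjusted p under 0.05 by limma, the highest count was 4 receptors. It came from LP against IEL in PA milk without PA IEL 2, where 1487 of the 12502 tested genes also passed. Of 401 log2 fold changes recomputed for 21 results, 370 kept their direction and 31 reversed, and 13 of the 21 results reversed under none of the alternatives. The 370 include rows that could not reverse. Other filters, a fit of only the libraries compared and the replicate block leave a gene's difference of group means as it is by construction. In IEL, Il7r reversed from -0.49 to 0.36 with a pseudocount of 10, 1.60 with sample quality weights, 1.89 without the 2 sparse libraries and 1.29 as a ratio of mean FPKM, which carries no test. Il1r1 in IEL reversed to -0.58 with limma-voom, and Il18r1 to -0.56 with a pseudocount of 0.1 and -1.20 with limma-voom. In LP, Il1r1 reversed to 0.14, 0.56, 1.15 and 0.66 with the pseudocount of 10, the weights, the sparse libraries left out and the ratio of means, and Il18r1 to 0.01, 0.19 and 0.18 with the first, the third and the last of these. The cause was not tested. Leaving out 1 library at a time gave, in IEL, -1.79 to 1.89 for Il7r, -0.24 to 1.94 for Il1r1, -0.34 to 1.77 for Il2ra, -0.70 to 1.08 for Il2rb and -0.47 to 1.88 for Il18r1, and in LP, -0.91 to 2.08 for Il7r, -1.60 to 1.15 for Il1r1 and -1.40 to 0.34 for Il18r1. Receptors wholly higher in PA IEL went from 1 to 7 without the sparse libraries. A fit with the replicate number as a block, which cannot alter a fold change in this balanced design, had 0 receptors called. Same-numbered libraries correlated between -0.123 and 0.068 and 2 of 12 best with their own number, so the numbers were not used as pairs. Over all genes, calls between the layers over both diets were 110, and 29 to 982 under the alternatives, with 29 under the block; they were 4 (0 to 793) in ND and 18 (1 to 314) in PA milk. With 3 libraries a group and 2 sparse ones, large differences can be missed, and values under 3 reads have no order.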
